A study of Homo sapiens with 2 samples.

Results

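The genes of this report encode the sensors by which cells recognise foreign or misplaced RNA and DNA, together with the adaptors and the transcription factor that carry their signal. They were the 10 rows of the deposited gene table whose symbol was DDX58, IFIH1, DHX58, MAVS, TMEM173, TLR7, TLR9, AIM2, IFI16 or IRF3, out of 18930 genes. DDX58 is now named RIGI and TMEM173 is now named STING1, and the latter was also matched by its gene identifier, 340061. All 10 genes had reads in both libraries and passed the filter of 10 reads over both libraries, which 16210 genes passed in all. The fewest reads were the 58 of TLR7 in the library labelled WT.

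RNA-seq was made from 2 libraries, 1 labelled DR and 1 labelled WT, each from total RNA of cultured cells labelled as A375, an established human melanoma line. In the study DR stands for cells that outlived increasing amounts of dacarbazine, an alkylating drug used against melanoma that the labels spell DITC, and WT for the wild-type controls. The sample labels nevertheless give 105 days of the drug to both libraries. The columns of the table were assigned through the sample descriptions, which differ by 1 punctuation mark and neither of which says wild type, so every direction below rests on these descriptions. Neither description names DR or the cell line. The title of the sample labelled WT does contain wt. The libraries held 54878355 reads (DR) and 35294670 reads (WT). With 1 library per condition there was no replicate and no test between conditions, so the intervals given cover counting error only. They take each read as independent, and the sources used here name no molecular identifiers.

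The label of the cell line was checked against marker genes. Levels are given in CPM, reads scaled to the library total as adjusted by the TMM factors given below. Of 10 melanocytic markers, 8 had reads. Their summed level was 41.9 CPM in DR and 41.2 CPM in WT, most of it from MITF at 34.6 and 34.7 CPM. SOX10, which defines the melanocytic lineage, had 3 reads in DR and 0 in WT, and TYRP1, a melanin synthesis enzyme, had 0 and 17 reads. PMEL, a melanosome protein, had 248 and 82 reads (4.46 and 2.35 CPM) and MLANA, a melanocytic antigen, had 123 and 89 reads (2.21 and 2.55 CPM). TYR and S100B had no row in the table. All 10 plasma cell markers had reads, at 58.1 to 2010 CPM in DR and 64.5 to 2920 CPM in WT, and JCHAIN, the joining chain of secreted antibodies, was the highest of them in both. Melanocytic markers thus ranged from no reads to low levels apart from MITF, with SOX10 at or near 0, while plasma cell markers were abundant in both libraries, and the cells are called below only by their library labels.

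Cells detect RNA in the cytosol through the helicases RIG-I (DDX58) and MDA5 (IFIH1), which signal through the mitochondrial adaptor MAVS, while LGP2 (DHX58) lacks the signalling domains of the other helicases and modulates them. Cytosolic DNA is sensed by cGAS, whose product activates STING (TMEM173), and by the PYHIN proteins AIM2, which assembles an inflammasome, and IFI16. TLR7 and TLR9 read single-stranded RNA and unmethylated CpG DNA inside endosomes and are best known from B cells and plasmacytoid dendritic cells. Several of these routes meet at IRF3, a constitutive transcription factor that induces type I interferon once phosphorylated.

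On the TPM scale, which divides the reads of a gene by its length before scaling to the library, the 10 genes spanned a range from 3.12 to 238 TPM in DR and from 0.754 to 160 TPM in WT. IFI16, IRF3, TLR9 and MAVS held the first to the fourth place in that order in both libraries. IFI16 lay at 238 TPM in DR and 160 TPM in WT, above 96.7% and 94.2% of the genes with counts. Below MAVS the order differed. In DR it continued with IFIH1, AIM2, TMEM173, TLR7, DDX58 and DHX58, and in WT with TMEM173, IFIH1, AIM2, DDX58, DHX58 and TLR7. The 95% Poisson intervals of neighbours in the order overlapped in DR for AIM2 and TMEM173, for TLR7 and DDX58 and for DDX58 and DHX58, and in WT for DDX58 and DHX58, while all other neighbours had separate intervals.

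**Figure D1:**
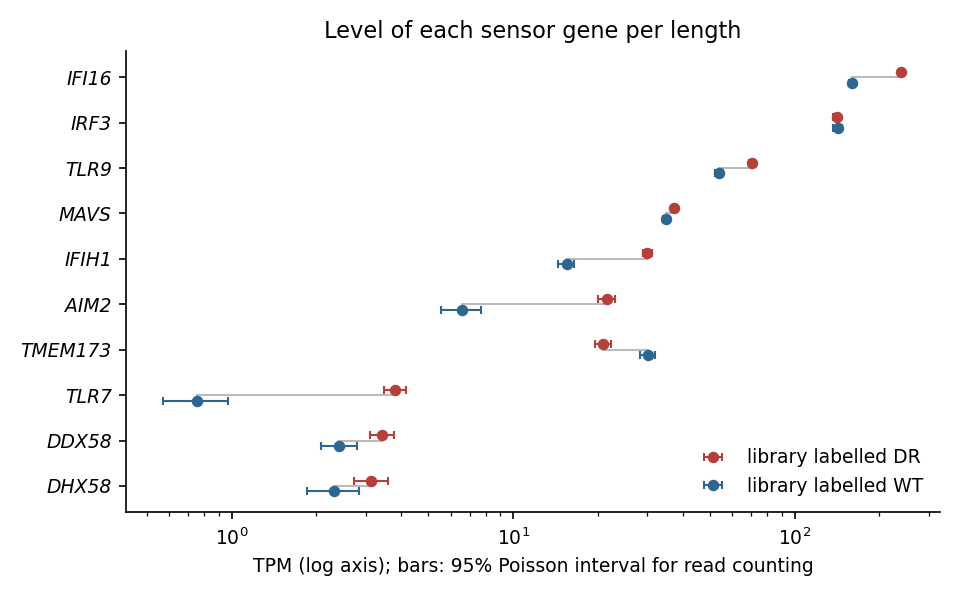
Level of the 10 sensor genes in TPM (horizontal log axis) in the library labelled DR (red) and the library labelled WT (blue), with 1 library each. Bars are 95% Poisson intervals for read counting, a grey line joins the values of a gene, and the widest gaps are those of TLR7 (3.8 and 0.754 TPM) and AIM2 (21.5 and 6.56 TPM).

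Differences between the libraries were read as a log2 fold change of DR over WT on the scale log2(CPM + 0.5), which understates the change of low genes. A gene was counted as higher or lower where it passed 2-fold, a log2 value of 1 or -1. Of the 10 sensor genes, TLR7 and AIM2 were higher in DR and 0 were lower, which is 20% against 7.48% of all genes tested that were higher and 4.16% that were lower. The median log2 fold change of the 10 genes was 0.44, against 0.01 over all genes tested. By their 95% counting intervals, 8 of the 10 lay above no difference, 1 lay below it (TMEM173) and IRF3 spanned it. At this depth the background is wide, since 35.8% of all genes tested had an interval above no difference and 34.6% had one below it. The libraries are bulk RNA, so fewer cells of a type and less RNA per cell cannot be told apart.

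**Figure D2:**
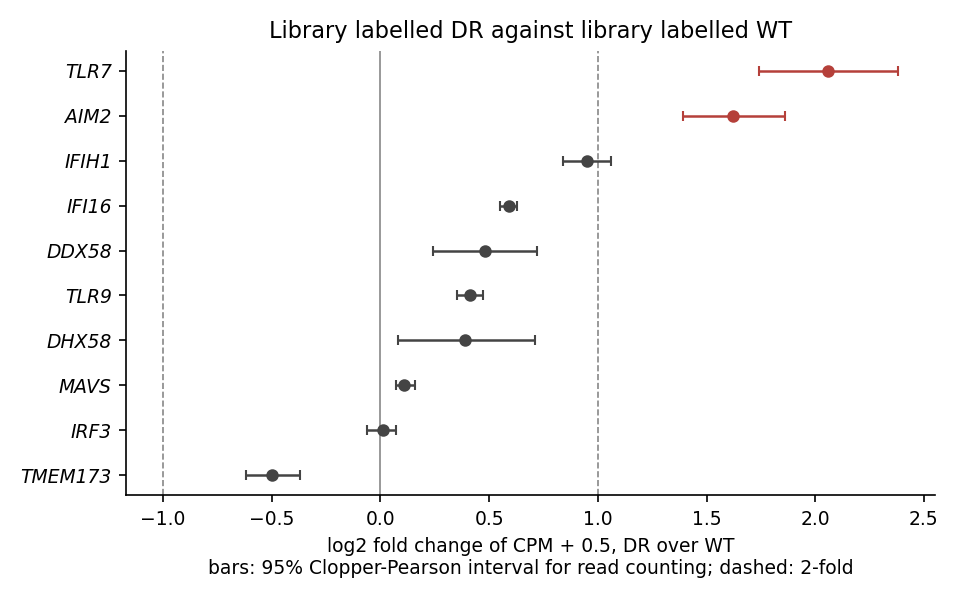
Log2 fold change of CPM + 0.5, DR over WT, for the 10 sensor genes, with 95% Clopper-Pearson intervals for read counting and dashed lines at 2-fold. TLR7 (2.06) and AIM2 (1.62), in red, lie wholly past 2-fold, the interval of IFIH1 (0.95) crosses the line, and TMEM173 (-0.50) is the only gene with its whole interval below 0.

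Among DDX58, IFIH1 and DHX58, the RNA helicases of the sensor genes, IFIH1 differed most. MDA5, which its transcript encodes, binds long double-stranded RNA. IFIH1 had 2688 reads (48.4 CPM) in DR and 862 reads (24.7 CPM) in WT, a log2 fold change of 0.95 (95% counting interval 0.84 to 1.06). It thus sat just inside 2-fold, and its interval reached past that line. DDX58, whose product binds short RNA with a triphosphate end, had 404 reads (7.27 CPM) in DR and 177 reads (5.08 CPM) in WT, a log2 fold change of 0.48 (0.24 to 0.72). DHX58 had 199 reads (3.58 CPM) in DR and 91 reads (2.61 CPM) in WT, a log2 fold change of 0.39 (0.08 to 0.71). All of the helicases were higher in DR beyond counting error, and none passed 2-fold.

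Within a library, IFIH1 stood apart from DDX58 and DHX58 per length. It exceeded DDX58 by a ratio of 8.75 (7.88 to 9.74) in DR and 6.41 (5.44 to 7.58) in WT, and these counting intervals did not overlap. DDX58 and DHX58 were close, with ratios of 1.09 (0.919 to 1.3) in DR and 1.05 (0.808 to 1.36) in WT, both intervals including equality.

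The promoter windows of IFIH1, AIM2 and DDX58 are shown because interferon-stimulated response elements (ISRE) and NF-kB sites are the sequence elements through which sensor genes are classically induced. Each line gives the 250 bases before the annotated start in the RefSeq table of GRCh38.p14, 5′ to 3′ on the gene's own strand, which is the minus strand for each of them. Capitals mark matches to the ISRE core GAAANNGAAA or to the NF-kB core GGGANNTTCC on either strand.
IFIH1, chr2:162318685-162318934: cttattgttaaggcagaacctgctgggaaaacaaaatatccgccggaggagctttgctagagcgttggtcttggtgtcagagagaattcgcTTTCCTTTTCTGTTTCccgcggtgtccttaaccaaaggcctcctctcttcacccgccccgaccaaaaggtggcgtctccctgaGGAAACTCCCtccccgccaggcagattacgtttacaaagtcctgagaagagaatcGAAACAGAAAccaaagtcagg
AIM2, chr1:159076767-159077016: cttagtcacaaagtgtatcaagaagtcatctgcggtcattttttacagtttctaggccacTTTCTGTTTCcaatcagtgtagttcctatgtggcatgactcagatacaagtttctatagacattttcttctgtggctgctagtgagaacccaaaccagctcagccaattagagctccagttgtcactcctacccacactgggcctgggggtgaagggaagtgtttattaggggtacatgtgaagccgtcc
DDX58 (RIGI), chr9:32526197-32526446: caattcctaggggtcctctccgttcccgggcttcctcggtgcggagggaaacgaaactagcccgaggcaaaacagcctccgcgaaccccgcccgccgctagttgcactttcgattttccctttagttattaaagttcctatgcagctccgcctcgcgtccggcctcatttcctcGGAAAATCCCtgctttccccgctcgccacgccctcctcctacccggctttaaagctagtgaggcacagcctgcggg

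Counting -1 as the base before the start, IFIH1 held 3 matches to the ISRE core. They lay at -159 to -150 and at -153 to -144, which overlap each other on the opposite strand, and at -21 to -12 on the gene's strand. Its NF-kB match, on the opposite strand, lay at -76 to -67. AIM2 held 1 ISRE match at -190 to -181, on the opposite strand, and no NF-kB match. DDX58 held an NF-kB match at -76 to -67, on the opposite strand, and no ISRE match by these letters. The table held windows for 6 of the 10 genes (7 windows, as IFI16 had a pair), and TLR7, DHX58, TMEM173 and IRF3 were not in it. An ISRE match was found for 2 of these 6 genes and in 3.02% of the 35116 windows of the table, and an NF-kB match for 2 of the 6 and in 1.4% of all windows. The GAS core TTCNNNGAA, bound by STAT dimers, was found in 0 of the 6 and in 6.57% of all windows. A match describes the letters of the window and is not evidence of binding.

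MAVS, the adaptor that RIG-I and MDA5 share, had 10931 reads (197 CPM) in DR and 6335 reads (182 CPM) in WT. The log2 fold change was 0.11 (0.07 to 0.16), above 0 by counting error but among the smallest differences of the 10 genes. TMEM173, which encodes the STING adaptor of the cGAS route, went the other way, with 1049 reads (18.9 CPM) in DR and 937 reads (26.9 CPM) in WT. Its log2 fold change was -0.50 (-0.62 to -0.37), short of 2-fold. Per length, MAVS exceeded TMEM173 by 1.79 (1.68 to 1.91) in DR and by 1.16 (1.09 to 1.25) in WT, so these adaptor transcripts stood closer together in WT. IRF3 had 5148 reads (92.7 CPM) and 3217 reads (92.3 CPM), a log2 fold change of 0.01 (-0.06 to 0.07), an interval that covers counting error only and stays far inside 2-fold.

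TLR7 showed the largest difference of the 10 genes. It had 472 reads (8.5 CPM) in DR and 58 reads (1.66 CPM) in WT, a log2 fold change of 2.06 (1.74 to 2.38), which is higher than that of 98% of all genes tested. Per length it was the lowest of the 10 genes in WT, at 0.754 TPM, and stood at 3.8 TPM in DR, where its interval overlapped that of DDX58. TLR9 was the more abundant endosomal receptor in both libraries, with 6898 reads (124 CPM) in DR and 3260 reads (93.5 CPM) in WT and a log2 fold change of 0.41 (0.35 to 0.47). The ratio of TLR9 to TLR7 per length was 18.6 (16.9 to 20.5) in DR and 71.5 (55.2 to 94.4) in WT. TLR9 therefore remained far above TLR7 in both libraries, by a smaller margin in DR.

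Both receptors are known from B cells and plasmacytoid dendritic cells, and markers of these cells were read beside them. Of 5 B cell markers tested, 3 were higher in DR, against 7.48% of all genes tested. These were MS4A1 (157 and 8 reads, log2 fold change 2.19), CD79A (1.06) and CD79B (1.25), with summed levels of the 5 at 17.5 CPM in DR and 6.2 CPM in WT. MS4A1 passed the filter on low counts through DR alone. PAX5, the factor that holds B cell identity, had 138 and 42 reads and a log2 fold change of 0.81, and CD22 had 7 and 4 reads. Of 6 plasmacytoid dendritic cell markers, 5 were tested and 1 was higher, IL3RA, with 436 and 58 reads and a log2 fold change of 1.95. Their summed levels were 401 and 322 CPM, most of it from TCF4, while the defining markers CLEC4C (12 and 11 reads) and LILRA4 (17 and 8 reads) were near 0. The 10 plasma cell markers summed to 4850 CPM in DR and 5890 CPM in WT. By their counting intervals 6 of them were below no difference, among them SDC1 (-0.62), JCHAIN (-0.54), IRF4 (-0.47) and XBP1 (-0.37), and 4 were above it, of which MZB1 (1.01) and DERL3 (1.08) passed 2-fold. Over all genes tested, 34.6% were below no difference and 35.8% were above it. Monocyte markers summed to 21.5 and 17.7 CPM and T cell markers to 4.36 and 4.13 CPM. The 6 fibroblast markers summed to 14.1 and 3.18 CPM, all but a trace of it from COL1A1 (572 and 109 reads) and PDGFRB (209 reads and 1 read, which passed the filter on low counts through DR alone), while COL1A2 and COL3A1 had at most 1 read in either library and DCN and LUM had no counts. The part of these marker differences in the TLR7 result was not tested.

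**Figure D3:**
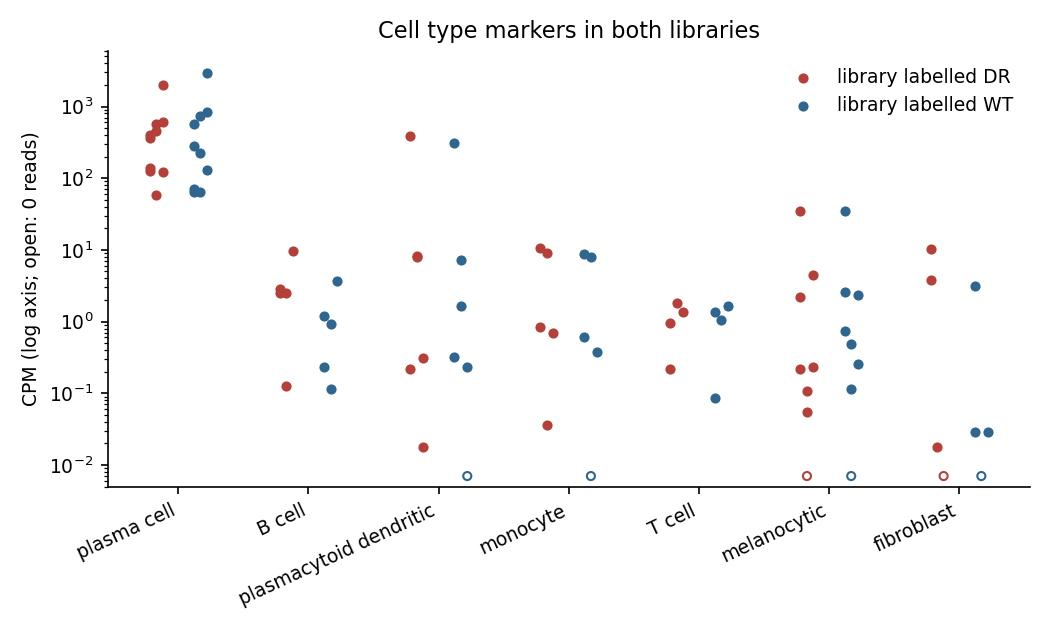
Level in CPM (vertical log axis, open symbols at the bottom for 0 reads) of each marker gene with counts (for B cells, each of the 5 tested), by cell type, in the library labelled DR (red) and the library labelled WT (blue). Plasma cell markers lie between 58.1 and 2920 CPM in both libraries, and the melanocytic markers other than MITF lie under 5 CPM.

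AIM2, whose protein binds double-stranded DNA and recruits the adaptor ASC, had 777 reads (14 CPM) in DR and 147 reads (4.22 CPM) in WT. The log2 fold change was 1.62 (1.39 to 1.86), higher than that of 97% of all genes tested. IFI16, the most abundant of the 10 genes, had 16219 reads (292 CPM) in DR and 6746 reads (194 CPM) in WT and a log2 fold change of 0.59 (0.55 to 0.63). The ratio of IFI16 to AIM2 per length was 11.1 (10.3 to 11.9) in DR and 24.4 (20.7 to 28.9) in WT. The transcripts of AIM2 and IFI16 were both higher in DR, and only that of AIM2 passed 2-fold. PYHIN1, a further gene of the PYHIN family, differed by 0.15 (-0.13 to 0.43). The marker values given beside TLR7 apply to AIM2 as well, and their part in its difference was not tested.

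The deposited values were estimated counts, and those of DDX58, MAVS, TLR7, AIM2, IFI16 and IRF3 were not whole numbers. Counts that are not whole can arise where reads are shared between genes, so the levels of these 6 genes carry that uncertainty, while IFIH1, DHX58, TMEM173 and TLR9 had whole counts. Such values were common, found for 9108 of the 18267 genes with counts.

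**Figure D4:**
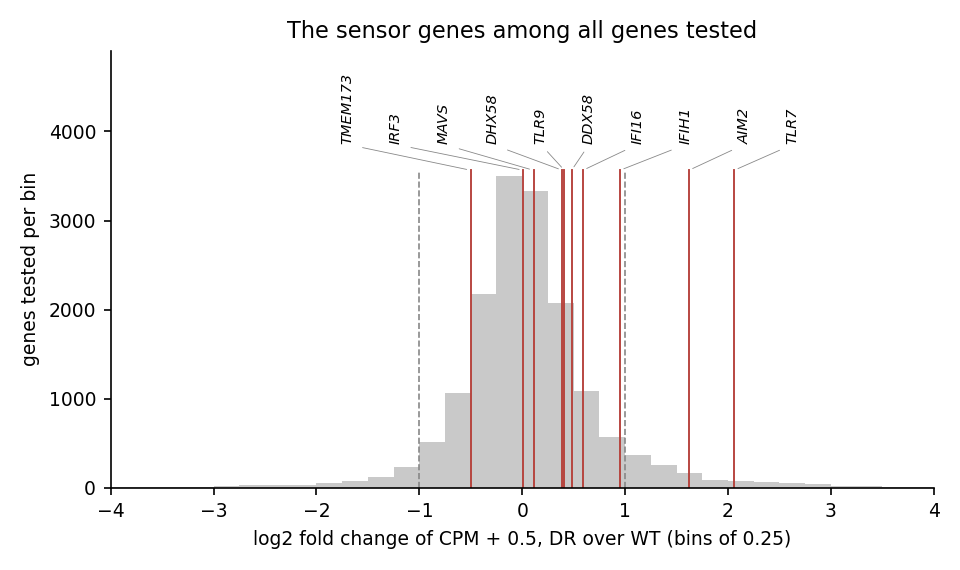
Number of genes tested per bin of 0.25 in the log2 fold change of CPM + 0.5, DR over WT (grey), with the 10 sensor genes as red lines and dashed lines at 2-fold. The bulk of the genes lies near the median of 0.01, and AIM2 and TLR7 lie in the right tail, with 7.48% of all genes past the right dashed line.

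The other genes of these pathways were read in 10 lists. Over them, 134 genes were tested, of which 11 (8.21%) were higher in DR and 5 (3.73%) were lower, near the shares over all genes, and their median log2 fold change was 0.15. The counts in each list below stand against 7.48% higher and 4.16% lower over all genes tested.

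Of 22 other nucleic acid sensors, 20 were tested, 3 were higher, 1 was lower and the median was 0.00. Those higher were the oligoadenylate synthetases, which make the second messenger that activates RNase L on sensing double-stranded RNA. OAS3 had 991 reads (17.8 CPM) in DR and 66 reads (1.89 CPM) in WT, a log2 fold change of 2.94 (2.64 to 3.24). OAS2 (2305 and 307 reads, 2.17) and OAS1 (1706 and 423 reads, 1.30) followed. The related gene OASL had 277 and 191 reads and a log2 fold change of -0.12 (-0.37 to 0.13). DDX60, a helicase linked to RIG-I signalling, was lower at -1.40 with 28 and 75 reads. CGAS, which synthesises the ligand of STING, was at 57.1 CPM in DR and 55.6 CPM in WT, a log2 fold change of 0.04 (-0.04 to 0.12). DDX41, a helicase proposed to sense DNA upstream of STING, was at 64.5 and 53.9 CPM, a log2 fold change of 0.26 (0.18 to 0.34).

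Among the regulators of RIG-I, MDA5 and MAVS, 0 of 21 were higher and 1 was lower, with a median of -0.02. The lower gene was RNF125, a ubiquitin ligase that restrains RIG-I signalling, at 12.1 CPM in DR and 26.8 CPM in WT and a log2 fold change of -1.12. TRIM25, the ligase that activates RIG-I, was at 228 and 161 CPM, a log2 fold change of 0.50. Of 18 genes of STING control and of the nucleases that remove DNA, 0 were higher and 0 were lower, with a median of 0.15. Neither TMEM173, lower by its counting interval, nor CGAS nor any of these control genes passed 2-fold.

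Around the endosomal receptors, 20 genes were tested with a median of 0.49, of which 1 was higher and 2 were lower. PLD4, an endosomal exonuclease that degrades single-stranded nucleic acids, was the lowest in DR relative to WT of the pathway genes tested here, at 54.1 CPM (3004 reads) in DR and 339 CPM (11819 reads) in WT, a log2 fold change of -2.64 (-2.70 to -2.58). SLC15A4, an endolysosomal transporter needed for TLR7 and TLR9 signalling, was at 24.1 and 63 CPM, a log2 fold change of -1.37 (-1.47 to -1.27). The gene counted as higher was CTSL, a protease that can cleave these receptors, with 97 reads in DR and 1 in WT. It passed the filter on low counts through DR alone. Its ratio of CPM was 60.9, with a counting interval of 10.7 to 2430. CTSL is named here although its mean level was under the 1 CPM set for named genes. UNC93B1, the chaperone that carries TLR7 and TLR9 to endosomes, was at 343 and 198 CPM, a log2 fold change of 0.79 (0.75 to 0.83), and MYD88, their adaptor, was at 32.4 and 35.6 CPM, a log2 fold change of -0.13. By their counting intervals, 13 of these 20 genes were higher in DR and 5 were lower, against 35.8% and 34.6% of all genes tested.

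Of the inflammasome genes below AIM2, 6 of 7 were tested, 1 was higher and 1 was lower. PYCARD, which encodes the ASC adaptor bound by AIM2, was at 22.5 CPM in DR and 10 CPM in WT, a log2 fold change of 1.13 (0.97 to 1.30). CASP1, the protease that ASC recruits, was at 26.3 and 25.2 CPM, a log2 fold change of 0.06 (-0.06 to 0.18). IL1B, a cytokine that caspase-1 matures, was lower at 1.78 and 4.22 CPM, a log2 fold change of -1.05. AIM2 and PYCARD were thus both past 2-fold higher, though the interval of PYCARD reached under that line, and CASP1 was not.

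Among the kinases and scaffolds that activate IRF and NF-kB factors, 0 of 13 passed 2-fold in either direction, with a median of -0.08. TBK1, which phosphorylates IRF3, was at 44.1 and 46.6 CPM, a log2 fold change of -0.08, and the related kinase IKBKE at 48.3 and 31.4 CPM, a log2 fold change of 0.61. Of 11 IRF and NF-kB factors other than IRF3, 2 were higher and 0 were lower. IRF7, which amplifies interferon induction and serves TLR7 and TLR9, was at 21 CPM in DR and 9.81 CPM in WT, a log2 fold change of 1.06 (0.90 to 1.23). IRF5, also downstream of these receptors, was at 105 and 49.9 CPM, a log2 fold change of 1.06 (0.98 to 1.14). Both passed 2-fold, though with intervals that reached under that line, while the log2 fold change of IRF3 was 0.01.

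**Figure D5:**
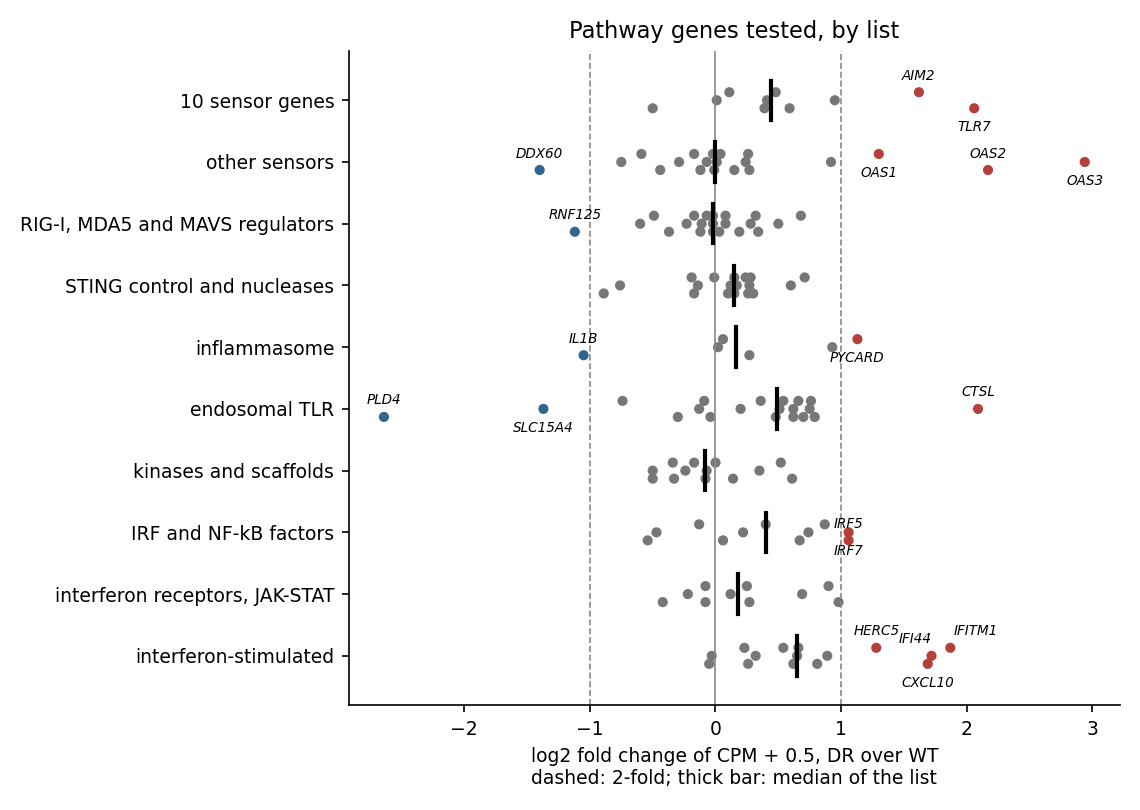
Log2 fold change of CPM + 0.5, DR over WT, of each gene tested in the list of the 10 sensor genes and in 9 pathway lists (the interferon list had no gene with enough reads), red for at least 2-fold higher and blue for at least 2-fold lower, with dashed lines at 2-fold. Thick bars are list medians, from -0.08 for the kinases to 0.65 for the interferon-stimulated genes.

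Transcripts of the interferons themselves were at the limit of detection. Of 20 type I and type III interferon genes, 10 were in the table and 8 had reads, with 7 reads in all in DR and 12 in WT, and 0 reached the 10 reads needed for a fold change. IFNB1, the first interferon that IRF3 induces, had 1 read in DR and 0 in WT, where 3 reads would be 0.054 CPM in DR and 0.0861 CPM in WT. Of 10 genes for interferon receptors and JAK-STAT signalling, 0 passed 2-fold in either direction. IFNAR1 was at 138 and 116 CPM, a log2 fold change of 0.25, and IFNAR2 at 86.9 and 116 CPM, a log2 fold change of -0.42, so the receptor chains for type I interferon leaned in opposite directions.

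Of 16 interferon-stimulated genes, 15 were tested, 4 were higher, 0 were lower and 13 had a log2 fold change above 0, with a median of 0.65. Over all genes tested, 7.48% were higher, 4.16% were lower and 8277 of 16210 had a log2 fold change above 0. IFITM1, a membrane protein that blocks virus entry, had 278 and 35 reads and a log2 fold change of 1.87 (1.50 to 2.23). IFI44 had 163 and 19 reads and a log2 fold change of 1.72 (1.30 to 2.10). CXCL10, a chemokine that attracts activated T cells, was the most abundant of those higher, at 104 CPM in DR and 31.7 CPM in WT and a log2 fold change of 1.69 (1.60 to 1.79). HERC5, the main ligase for ISG15, was at 37.7 and 15.2 CPM, a log2 fold change of 1.28 (1.15 to 1.42). The intervals of IFIT1 (-0.05, -0.35 to 0.25), IFIT3 (-0.03, -0.18 to 0.12) and RSAD2 (0.23, -0.19 to 0.64) spanned no difference. By their intervals, 12 genes of the list lay above no difference and 0 below it, against 35.8% and 34.6% of all genes tested.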

How the data were processed

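Gene-level RNA-seq values of 1 library labelled DR and 1 library labelled WT were analysed. The values are estimated counts per gene as the authors deposited them, with a gene length beside them. The submitters' processing notes name Bowtie 0.12.2 and hg19, without their roles, and the counting tool and annotation are not given in the sources used here. Of 18930 genes, 663 had no counts. The table's columns of the authors' own comparison (a log2 ratio, a p-value, a q-value and a direction) were not used.

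Before any calculation each estimated count was rounded. CPM was scaled by TMM factors (1.01 for DR and 0.988 for WT) of edgeR 4.0.16 in R 4.3.3, computed over all genes with counts, and TPM used the deposited length. Fold changes used a pseudocount of 0.5 CPM for the 16210 genes whose reads in both libraries summed to at least 10, and 2057 genes were left out. With 1 library per condition the quasi-likelihood test of edgeR could not be fitted, so no p-value is given. A gene was counted past 2-fold. The 95% intervals of fold changes were derived by the Clopper-Pearson method from the reads of DR among those of both libraries, those of levels are Poisson intervals, and both were computed with SciPy 1.17.1. The procedure was tested on simulated data.

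The 10 sensor genes and all gene lists were chosen with earlier results of these data known. Named are the 10 genes, every pathway gene past 2-fold with a mean of at least 1 CPM (at most 8 a list), and, whatever their values, CGAS, DDX41, UNC93B1, MYD88, TRIM25, TBK1, IKBKE, PYCARD, CASP1, IRF7, IFNB1, IFNAR1 and IFNAR2. DHX9, DHX36, PYHIN1, OASL, IFIT1, IFIT3 and RSAD2 are named beside these for comparison. With 2 libraries no measure of likeness between genes could be formed, so no gene is named for a pattern like that of a sensor. One B cell marker of the lists is not reported here. The alternatives were DESeq2 1.42.0 size factors, library totals, other pseudocounts, filters and thresholds, and counts that were not rounded. Promoter windows and gene order came from RefSeq tables of GRCh38.p14, and 18583 gene identifiers of the table matched.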

Additional observations from a re-analysis of the deposited data

How the results depend on the processing

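The calls of the 10 sensor genes, TLR7 and AIM2 higher and 0 lower, held under DESeq2 size factors, library totals, pseudocounts of 0.1 and 5 CPM, unrounded counts and the other filters, and none of the 10 changed sign in any of them. A threshold of 4-fold left 1 of them, TLR7, with 3 pathway genes higher and 1 lower and 339 and 189 of all genes. A pseudocount of 5 CPM, which by its construction shrinks the differences of low genes, left 5 pathway genes higher and 2 lower and 423 and 333 of all genes, with TLR7 at 1.02 and AIM2 at 1.04. Of the 15 named pathway genes past 2-fold, 8 fell under it there, namely DDX60 (-0.38), IFI44 (0.52), IFITM1 (0.74), IL1B (-0.44), IRF5 (just under the line), IRF7 (0.81), PYCARD (0.87) and RNF125 (-0.90), and 0 changed sign. No paired analysis was possible because DR and WT have 1 library each, and no replicate could be left out. Depth bounds the interferon transcripts, each of which had at most 5 reads in either library.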

Other observations

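The genes next to the sensors on the chromosome were also read, with the 3 nearest genes tested on each side in the RefSeq order of GRCh38.p14, a look chosen after the values were seen. Of the 54 distinct neighbours that were not sensor genes themselves, 2 were higher in DR (3.7%) and 3 were lower (5.56%), against 7.48% and 4.16% of all genes tested, and their median log2 fold change was 0.05. Of those counted, FCRL6 passed the filter on low counts through DR alone and TBR1 through WT alone. The genes tested nearest to TLR7, with its log2 fold change of 2.06, were PRPS2, a nucleotide synthesis enzyme that was lower at -1.60 (3997 reads in DR and 7630 in WT), and TMSB4X, which encodes an actin-binding peptide, at -0.52 (34326 and 30849 reads). TLR8, a related receptor that lies between TLR7 and TMSB4X, was in the table without counts. On one side of IFIH1 lay GCA, a calcium-binding protein of granulocytes, at 0.63 (1067 and 426 reads), FIGN, higher at 1.92 (519 and 73 reads), and GRB14, at -0.98 (164 and 220 reads). On the other side DPP4 was at 0.52 (60 and 21 reads), SLC4A10 at 0.05 (11 and 6 reads) and TBR1 lower at -1.36 (3 and 32 reads). Near AIM2 and IFI16, which neighbour each other, the related gene PYHIN1 differed by 0.15 (-0.13 to 0.43) with 240 and 134 reads, and FCRL6, an Fc receptor-like gene, was higher at 1.29 (71 and 8 reads). The remaining gene that was lower was ADM5, near IRF3, at -1.58 (247 and 498 reads).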
